A study of Mus musculus with 12 samples.

Results

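The genes described here encode the proteasome: the subunits of its 20S core and its 19S cap, the chaperones that assemble them, and the activators and the inhibitor that bind the core. They are the protein-coding genes of the deposited table whose symbol is Psma, Psmb, Psmc, Psmd, Psme, Psmf or Psmg with a number, without Psmb8, Psmb9 and Psme2, and they number 45 of 46986 features. The choice rests on gene names alone. By role they are 8 genes of the 20S alpha ring, 9 of the 20S beta ring, 4 chaperones of 20S assembly, 6 ATPases of the 19S base, 3 genes for base scaffolds and a ubiquitin receptor, 8 of the 19S lid, 3 chaperones of base assembly, and 4 activators or inhibitors.

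The proteasome is the protease that degrades most proteins marked with ubiquitin. The cap binds and unfolds the marked protein with the energy of ATP and threads it into the barrel-shaped core, where sites on the beta ring cut it into peptides. Its subunits are assembled in fixed proportions, and in mammals the transcription factor NFE2L1 raises their transcription when proteolysis is impaired. Hematopoietic stem cells (HSCs), the rare marrow cells that renew the blood, are known for a low rate of protein synthesis and for their sensitivity to misfolded protein.

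RNA was measured in HSCs sorted from the bone marrow of C57BL/6 mice aged 12 weeks, in 4 groups of 3 libraries, each made from RNA of 2000 cells with SMART-Seq v4 and Nextera XT. The ABX 5-FU mice drank ampicillin, neomycin, metronidazole and vancomycin, a mixture that depletes gut bacteria, for 4 to 6 weeks, then received 5-fluorouracil (5-FU) at 200 mg/kg into a vein and were taken on day 12. The Ctrl 5-FU mice received the same 5-FU without antibiotics and were taken on the same day, the ABX mice had antibiotics alone, and the Ctrl mice had neither. 5-FU is an antimetabolite that kills dividing marrow cells, and day 12 falls in the recovery that follows. The labels give no sort gates. Nothing in them ties each library to its own animal, and the p-values therefore rest on a spread that may be technical.

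All 9 HSC markers listed were detected, with a summed level of 2833 to 3463 RPM per library. Markers of other cell types were detected too and are given at the end. Estimated depth was 27.9 to 54.9 M reads. It was lower in ABX (29.2 to 37.9 M) than in Ctrl libraries (44.3 to 54.9 M), without overlap. ABX 5-FU (31.8 to 38.7 M) and Ctrl 5-FU (27.9 to 54.2 M) overlapped. Libraries with and without 5-FU carry different i7 indexes, so the index and 5-FU cannot be told apart. Ctrl 5-FU replicate 1 lay apart from the other 2 libraries of its group on the second principal component of all genes, at 41.9 against -29.2 and -30.7. ABX 5-FU replicate 1, which carries the same i7 index, lay at 18.7 against -20.8 and -23.2 for the others of its group. The counts of called genes are also given without Ctrl 5-FU replicate 1.

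The deposited RPKM values were divided by genomic length with introns included, not by transcript length. Across 14872 protein-coding genes the log2 value fell with genomic span (exponent -0.93) and rose with exon length (exponent 1.075). Among the 31 constitutive core and cap subunits, which are built into one particle, the highest mean RPKM (Psmb6, 80.7) was 67.6 times the lowest (Psmd14, 1.19). With the span multiplied back, giving RPM, the reads of a gene per M reads of its library, the ratio of highest to lowest was 4.96. Pearson's r over these 31 genes between log2 span and log2 level was -0.92 for RPKM and -0.23 for RPM, given here as a description of genes that share the same libraries. All values that follow are therefore RPM, and levels of different genes are set beside each other only as RPM per kilobase of the principal annotated transcript.

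**Figure D1:**
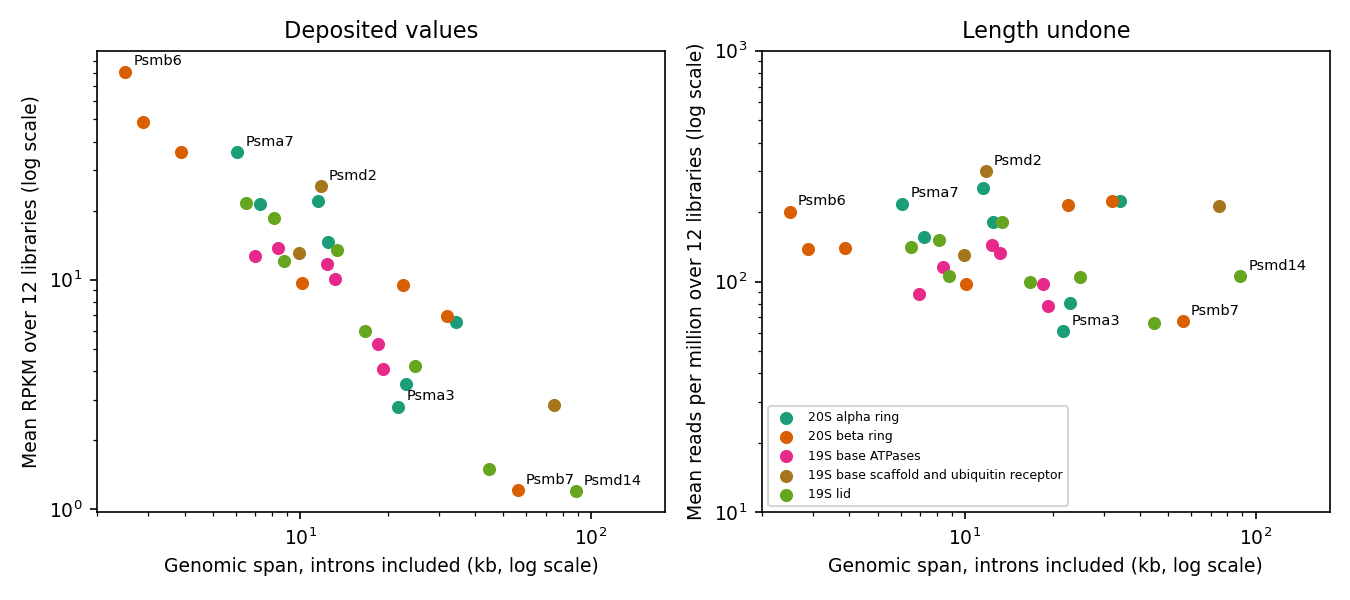
Mean level of the 31 constitutive 20S and 19S subunits against their genomic span, both on log axes: deposited RPKM on the left, RPM on the right, 1 point per gene, coloured by role. The deposited values fall steadily from Psmb6 (80.7 RPKM) to Psmd14 (1.19 RPKM), a slope that is largely absent on the right, where Psmd2 is highest (302 RPM) and Psma3 lowest (60.8 RPM).

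Per kilobase of transcript and averaged over the 12 libraries, the beta subunits Psmb2 (260.2) and Psmb6 (252) and the alpha subunit Psma7 (238) were highest, followed by Psma6 (215) and Psma1 (211). Psme1, the alpha chain of the PA28 activator, stood at 188 RPM per kilobase. In the cap the ATPases Psmc4 (80.3) and Psmc6 (35.1), the scaffolds Psmd2 (102) and Psmd1 (68.2), and the lid subunits Psmd8 (91.7) and Psmd14 (68.7), a deubiquitinase, were all below the core subunits just named. Other core subunits, Psma3 (21.4), Psmb7 (58.3), Psma2 (62.2) and Psma5 (65.1), were below Psmc4, Psmd2 and Psmd8. The overlap of core and cap levels rests on these genes. The other constitutive core subunits, the lowest being Psmb4 (117.5), were above every cap subunit. Near-identical copies held 73.3% of the joint level of Psma3 and 51.2% for Psma5, and Psmb7 overlaps Nek6, so these levels are uncertain. Psma3 and Psma2 were divided by longer transcripts, 2846 and 2911 bases, than the other constitutive core subunits. Per kilobase of transcript the SD of the log2 level over the 31 constitutive subunits was 0.90, against 0.61 for RPM. Of the chaperones, Psmg3 was at 36.99, Psmg4 at 44.8, Psmd5 at 33.6 and Psmd9 at 16.4 RPM per kilobase.

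Genes best known from other tissues were low. Psma8, which replaces Psma7 in the testis, was at 8.98 RPM per kilobase, and Psme4, the PA200 activator best known from spermatids and DNA repair, was at 3.2. Psmb11, the catalytic subunit of the thymus, was at 0 in 11 libraries and at 0.0186 RPM in Ctrl replicate 3. Psmb11 did not pass the filter of at least 1 RPM in at least 3 libraries, so 44 of the 45 genes were tested among 14317 genes in all.

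Promoter windows from RefSeq (GRCm38.p6, from 250 bases before to 50 after the annotated start) were found for 37 of the 45 genes. The core of the antioxidant response element, TGACNNNGC, which NFE2L1 and NFE2L2 bind, was searched on both strands and lay in 6 of the 37 windows, 16.2%, against 12.5% of 27025 windows of all genes. Those 6 belong to Psmb5, Psmb6, Psmc6, Psmd12, Psmd9 and Psme4. The CCAAT box, searched as CCAAT on both strands, lay in 35.1% of the windows of these genes against 37.9% of all windows, and the TATA box, searched as TATAAA, in 8.11% against 14.2%. None of these motifs overlap in the sequences shown. The 250 bases before the start are printed for Psmb5 and Psmb6, catalytic subunits that carry the element core close to the start, and for Psme3, an activator with a CCAAT box there. Psmb5 is on the minus strand (chr14:54617996-54618245), and Psmb6 (chr11:70525107-70525356) and Psme3 (chr11:101315963-101316212) are on the plus strand. Capitals mark the element core in Psmb5 and Psmb6, which begins 47 and 9 bases before the RefSeq start. In Psme3 they mark the CCAAT box, read on the opposite strand and beginning 14 bases before the RefSeq start. The deposited table starts Psmb6 further downstream, at chr11:70525367.
Psmb5: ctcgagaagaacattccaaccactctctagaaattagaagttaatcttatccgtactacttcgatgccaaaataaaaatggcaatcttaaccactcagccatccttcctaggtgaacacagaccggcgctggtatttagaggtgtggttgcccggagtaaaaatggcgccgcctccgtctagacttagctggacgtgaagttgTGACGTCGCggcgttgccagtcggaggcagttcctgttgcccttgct
Psmb6: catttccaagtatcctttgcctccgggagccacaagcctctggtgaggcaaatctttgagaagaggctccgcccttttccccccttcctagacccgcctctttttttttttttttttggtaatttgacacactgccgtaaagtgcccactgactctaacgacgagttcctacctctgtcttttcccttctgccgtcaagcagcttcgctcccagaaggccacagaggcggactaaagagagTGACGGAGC
Psme3: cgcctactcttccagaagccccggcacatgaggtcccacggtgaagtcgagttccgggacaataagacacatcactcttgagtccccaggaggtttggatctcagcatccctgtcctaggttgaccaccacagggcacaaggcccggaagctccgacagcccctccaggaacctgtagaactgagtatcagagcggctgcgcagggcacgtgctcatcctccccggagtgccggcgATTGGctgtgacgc
A match is a string of letters in these windows and not a binding site that was measured.

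Averaged over antibiotic state, 22 of the 44 tested genes were lower after 5-FU than without it, and 0 were higher (limma, adjusted p under 0.05). Of all 14317 genes, 16.9% were called lower and 18.7% higher in that comparison. The median log2 change of the 44 genes was -0.21, against 0.03 over all genes tested, and 39 of the 44 lay below 0. At an unadjusted p under 0.05, 30 were lower and 0 higher, against 21.3% and 24% of all genes. The changes were small: among those called Psme1 fell by 26.5% and Psmd12 fell by 12.8%, the widest and the narrowest, as converted from log2(RPM + 1). For 7 genes all 6 libraries with 5-FU lay below all 6 without and for 0 above, with 6.98% and 7.55% of all genes. Since each library is a bulk sample, less RNA per cell and fewer cells of a kind that holds more of it cannot be told apart.

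How many genes were called depended on the scaling and on single libraries. The summed RPKM was lower after 5-FU, 142124 to 157116 against 165095 to 176921 per library. These are sums of the values divided by genomic span. When libraries were set to equal summed RPKM, the median of all genes moved to 0.19 and 79.9% of all called genes were higher, against 52.5% on the RPM scale, and 7 proteasome genes were called lower (Psma5, Psmb2, Psmb6, Psmb10, Psme1, Psme3 and Psmg2) and 4 higher (Psma8, Psmd4, Psmd8 and Psmd10). Median-ratio scaling, by the median over genes of each library's ratio to the mean of the gene, gave 26 lower and 0 higher. Relative to the median of all genes, the median of the 44 was -0.24 on the RPM scale and -0.23 with equal summed RPKM. Leaving out 1 library at a time gave between 17 and 26 called lower, with 26 without Ctrl 5-FU replicate 1, and 17 of the 22 were called in all 12 of these fits. The 5 that were lost at least once are Psma1, Psma2, Psmc4, Psmd12 and Psmg4.

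**Figure D2:**
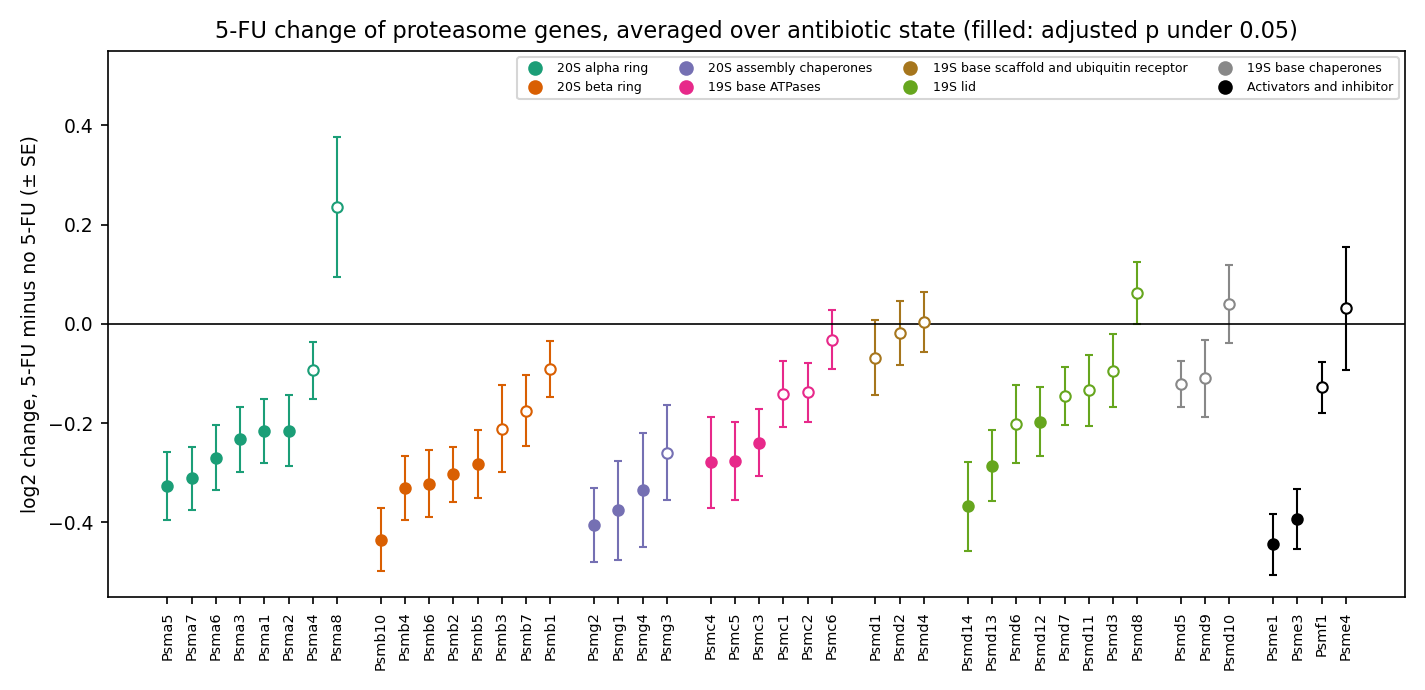
Log2 change after 5-FU, averaged over antibiotic state, for the 44 tested genes grouped and coloured by role, with points at the estimate and bars of 1 SE, filled where the adjusted p is under 0.05. The 22 filled points lie between -0.44 and -0.20, and the 3 scaffold and receptor genes lie near 0. With libraries set to equal summed RPKM the count is 7 lower and 4 higher, and with median-ratio scaling 26 lower and 0 higher.

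Calls by role are for the comparison averaged over antibiotic state, and roles were not tested against each other. Positions here and below are mm10, with the end 1 base before the deposited stop, which is exclusive. In the alpha ring, which gates entry to the core, 6 of 8 genes were lower after 5-FU, against 16.9% of all genes. The median log2 change was -0.22, against 0.03 over all genes. Psma7 (chr2:180036373-180042433) had 208, 186 and 203 RPM in ABX 5-FU, 203, 195 and 172 RPM in Ctrl 5-FU, 227, 265 and 236 RPM in ABX and 247, 221 and 252 RPM in Ctrl libraries. All 6 libraries with 5-FU lay below all 6 without, and the log2 change was -0.31 ± 0.064 (adjusted p = 0.00274). Psma5 (chr3:108256926-108279974) had 74.1, 67.3 and 72.7 RPM in ABX 5-FU, 78.5, 71.3 and 64.8 RPM in Ctrl 5-FU, 80.5, 95.3 and 93.7 RPM in ABX and 93.6, 84.4 and 91.5 RPM in Ctrl libraries. Its 2 sets of 6 libraries did not overlap either, and the change was -0.33 ± 0.068 (adjusted p = 0.00313). Psma6 (chr12:55384222-55418454) had 234, 195 and 205 RPM in ABX 5-FU, 217, 199 and 171 RPM in Ctrl 5-FU, 245, 265 and 251 RPM in ABX and 239.7, 229 and 237 RPM in Ctrl libraries. Each 5-FU group lay below its own group without 5-FU, although ABX 5-FU replicate 1 exceeded 1 Ctrl library, and the change was -0.27 ± 0.066 (adjusted p = 0.00772). Psma3, Psma1 and Psma2 changed by -0.23, -0.22 and -0.22, and Psma4 (-0.09) was not called. Psma8 had 14.2, 13.8 and 16.7 RPM in ABX 5-FU, 16.04, 18.2 and 18.8 RPM in Ctrl 5-FU, 11.8, 14.7 and 7.54 RPM in ABX and 17.1, 18.7 and 14.9 RPM in Ctrl libraries, groups that overlap, and a change of 0.24 ± 0.14 (adjusted p = 0.218).

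In the beta ring, which holds the proteolytic sites, 5 of 8 tested genes were lower, against 16.9% of all genes, with a median of -0.29. Psmb10 (chr8:105935728-105938392), the interferon-inducible subunit that takes the place of Psmb7 in the immunoproteasome, had 91.3, 91.2 and 81.9 RPM in ABX 5-FU, 107, 107 and 87.3 RPM in Ctrl 5-FU, 115, 123 and 126 RPM in ABX and 133, 132 and 135 RPM in Ctrl libraries. Every library after 5-FU lay below every library without it, and the change was -0.44 ± 0.063 (adjusted p = 0.0003). Psmb2 (chr4:126677630-126709714), a structural subunit, had 199, 199.9 and 198 RPM in ABX 5-FU, 212, 206 and 185 RPM in Ctrl 5-FU, 227, 256 and 258 RPM in ABX and 259, 232 and 249.5 RPM in Ctrl libraries. No library with 5-FU reached the lowest without it, and the change was -0.30 ± 0.055 (adjusted p = 0.00124). Psmb4 (chr3:94884093-94886961), also structural, had 132, 114 and 129 RPM in ABX 5-FU, 131, 119 and 113 RPM in Ctrl 5-FU, 141, 149.9 and 154 RPM in ABX and 179, 149 and 157 RPM in Ctrl libraries. These values did not overlap between libraries with and without 5-FU, and the change was -0.33 ± 0.065 (adjusted p = 0.00222).

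The constitutive catalytic subunits differed in their calls. Psmb6 (chr11:70525367-70527858), the caspase-like site, had 186, 169.5 and 175 RPM in ABX 5-FU, 186, 197 and 158 RPM in Ctrl 5-FU, 195, 228 and 220.1 RPM in ABX and 248, 217 and 234 RPM in Ctrl libraries. Ctrl 5-FU replicate 2 exceeded ABX replicate 1, but each 5-FU group lay below its own group without 5-FU, and the change was -0.32 ± 0.067 (adjusted p = 0.00305). Psmb5 (chr14:54614120-54617995), the chymotrypsin-like site, had 127, 112 and 123 RPM in ABX 5-FU, 129, 146 and 122 RPM in Ctrl 5-FU, 138, 155 and 150.5 RPM in ABX and 177, 145 and 159 RPM in Ctrl libraries. Ctrl 5-FU replicate 2 lay just above Ctrl replicate 2, the ABX groups did not overlap, and the change was -0.28 ± 0.068 (adjusted p = 0.00719). Psmb7 (chr2:38588036-38644087), the trypsin-like site, had 74.5, 62.8 and 59.7 RPM in ABX 5-FU, 66.1, 59.1 and 58.6 RPM in Ctrl 5-FU, 64.9, 74.8 and 68.9 RPM in ABX and 78.8, 70.4 and 72.4 RPM in Ctrl libraries. ABX 5-FU replicate 1 overlapped the ABX libraries, and the change, -0.18 ± 0.072 (adjusted p = 0.0765), was not called and lay just above 0 with equal summed RPKM. Psmb3 (-0.21) and Psmb1 (-0.09) were not called.

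Of the chaperones that build the core, 3 of 4 were lower, against 16.9% of all genes, with the lowest median of any role, -0.36. Psmg2 (chr18:67641599-67654162), which with Psmg1 forms the dimer on which the alpha ring assembles, had 48.8, 45.9 and 47.7 RPM in ABX 5-FU, 59.1, 55.9 and 49.3 RPM in Ctrl 5-FU, 65.3, 70.3 and 69.7 RPM in ABX and 77.4, 59.5 and 65.3 RPM in Ctrl libraries. The libraries with 5-FU lay below those without, the nearest pair being Ctrl 5-FU replicate 1 and Ctrl replicate 2, and the change was -0.40 ± 0.075 (adjusted p = 0.0015). Psmg1 changed by -0.38 ± 0.10 (adjusted p = 0.0117). The partner pair that acts on the same ring is Psmg3 and Psmg4. Psmg4 averaged 22.6 ± 1.53 RPM in ABX 5-FU, 21.1 ± 3.73 RPM in Ctrl 5-FU, 29.5 ± 0.902 RPM in ABX and 26.3 ± 5.46 RPM in Ctrl libraries (SD, n = 3). Psmg3 averaged 29.2 ± 2.08 RPM in ABX 5-FU, 30.1 ± 4.06 RPM in Ctrl 5-FU, 36.1 ± 4.29 RPM in ABX and 35.3 ± 4.26 RPM in Ctrl libraries (SD, n = 3). Psmg4 was called at -0.34 ± 0.12 (adjusted p = 0.0396) and Psmg3, at -0.26 ± 0.095 (adjusted p = 0.0511), was not.

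Of the 6 ATPases of the cap, which form the ring that unfolds substrates, 3 were lower, against 16.9% of all genes. Their median was -0.19. Psmc3 (chr2:91054009-91066369) had 140.3, 132 and 127 RPM in ABX 5-FU, 151, 124 and 119 RPM in Ctrl 5-FU, 153, 156 and 146 RPM in ABX and 169.6, 147 and 167 RPM in Ctrl libraries. The highest Ctrl 5-FU library lay above the lowest Ctrl library, the ABX groups did not overlap, and the change was -0.24 ± 0.068 (adjusted p = 0.0159). Psmc4 and Psmc5 changed by -0.28 and -0.28. Psmc6 had 91.1, 79.3 and 83.3 RPM in ABX 5-FU, 70.03, 70.98 and 70.7 RPM in Ctrl 5-FU, 86.9, 87.8 and 86.1 RPM in ABX and 72.3, 65.2 and 77.99 RPM in Ctrl libraries. The 5-FU change of Psmc6 was -0.03 ± 0.060 (adjusted p = 0.706), while its antibiotic libraries lay above those without antibiotics both after 5-FU and without it.

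The scaffolds and the receptor were not called, with a median of -0.02 over 3 genes. Psmd2 (chr16:20651652-20663414), the scaffold that receives shuttle proteins, had 313, 280.4 and 279 RPM in ABX 5-FU, 344, 284 and 299 RPM in Ctrl 5-FU, 308, 287 and 316 RPM in ABX and 335, 284 and 292 RPM in Ctrl libraries. All 4 groups overlap, and the change was -0.02 ± 0.064 (adjusted p = 0.842). Psmd1, the other scaffold, averaged 209.7 ± 6.66 RPM in ABX 5-FU, 205 ± 39.1 RPM in Ctrl 5-FU, 231 ± 5.32 RPM in ABX and 203 ± 11.7 RPM in Ctrl libraries (SD, n = 3), and its log2 change was -0.07 ± 0.076 (adjusted p = 0.512). The wide Ctrl 5-FU spread of Psmd1 comes from replicate 1, at 250.5 RPM against 185 and 181 RPM. The ubiquitin receptor Psmd4 stood at 0.00 ± 0.060 (adjusted p = 0.969) on the same scale.

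In the lid, which removes ubiquitin from the substrate, 3 of 8 genes were lower, against 16.9% of all genes, with a median of -0.17. Psmd14 (chr2:61711694-61800376), the enzyme that does so, had 99.5, 92.9 and 93.4 RPM in ABX 5-FU, 106, 86.9 and 75.02 RPM in Ctrl 5-FU, 122, 128 and 117 RPM in ABX and 134, 100.4 and 114 RPM in Ctrl libraries. The ABX groups did not overlap, the Ctrl groups did, and the change was -0.37 ± 0.090 (adjusted p = 0.00746). Psmd13 and Psmd12 changed by -0.29 and -0.20. Psmd8 had 167, 147 and 143 RPM in ABX 5-FU, 140.2, 141 and 127 RPM in Ctrl 5-FU, 129, 139 and 132 RPM in ABX and 158, 132 and 139.6 RPM in Ctrl libraries. All 3 ABX 5-FU libraries of Psmd8 lay above all 3 ABX libraries, the single gene of the 44 to do so, and its averaged change was 0.06 ± 0.062 (adjusted p = 0.472). None of the 3 chaperones of base assembly was called: the log2 change was -0.12 ± 0.047 (adjusted p = 0.0609) for Psmd5, -0.11 ± 0.077 (adjusted p = 0.291) for Psmd9 and, for Psmd10, 0.04 ± 0.079 (adjusted p = 0.722).

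Of the activators and the inhibitor 2 of 4 were lower, against 16.9% of all genes, with a median of -0.26. Psme1 (chr14:55578123-55581529) had 186, 179 and 177 RPM in ABX 5-FU, 171, 193 and 157 RPM in Ctrl 5-FU, 216, 241 and 248.8 RPM in ABX and 245, 234 and 265 RPM in Ctrl libraries. No library with 5-FU reached the lowest without it, and the change, -0.44 ± 0.062 (adjusted p = 0.000233), had the smallest adjusted p of the 44 genes. Psme3 (chr11:101316213-101323537), which forms the nuclear PA28 gamma ring by itself, had 172, 158 and 176 RPM in ABX 5-FU, 222, 206 and 189.8 RPM in Ctrl 5-FU, 247, 268 and 237 RPM in ABX and 257, 222 and 241 RPM in Ctrl libraries. The ABX 5-FU libraries were lowest, below every Ctrl 5-FU library, and Ctrl 5-FU replicate 1 met Ctrl replicate 2 at 222 RPM. The averaged change of Psme3 was -0.39 ± 0.060 (adjusted p = 0.000419). Psme4 (chr11:30771726-30880361) had 19.6, 18.9 and 21.8 RPM in ABX 5-FU, 21.8, 20.3 and 22.9 RPM in Ctrl 5-FU, 25.8, 24.6 and 15.1 RPM in ABX and 17.7, 19.95 and 20.98 RPM in Ctrl libraries. The ABX spread of Psme4 comes from replicate 3, the groups overlap, and the change was 0.03 ± 0.12 (adjusted p = 0.866). Psmf1, named for its inhibition of the core in the test tube, stood at -0.13 ± 0.052 (adjusted p = 0.0723) and was not called.

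**Figure D3:**
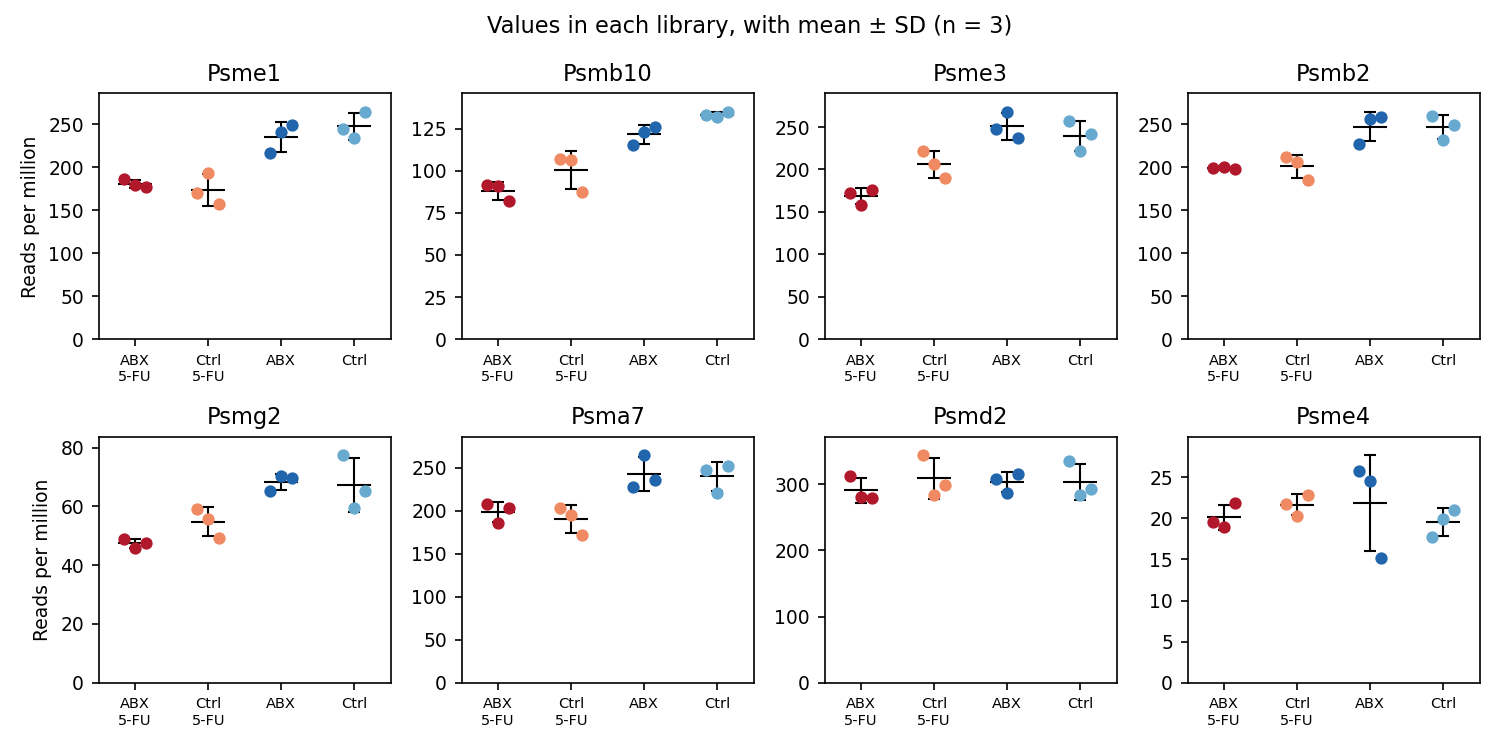
RPM of 8 genes in each library, groups left to right ABX 5-FU, Ctrl 5-FU, ABX and Ctrl, with points for the 3 libraries and lines for the mean ± SD. Psme1, Psmb10, Psmb2, Psmg2 and Psma7 show no overlap between the 6 libraries with 5-FU and the 6 without, Psme3 is lowest in ABX 5-FU (158 to 176 RPM), and Psmd2 and Psme4 overlap in all groups.

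The same contrast was then taken without and with antibiotics. Among Ctrl 5-FU against Ctrl libraries 7 of 44 genes were lower and 0 higher (limma, adjusted p under 0.05), against 7.97% of all genes lower and 8.94% higher. They are Psma5, Psma7, Psmb2, Psmb4, Psmb6, Psmb10 and Psme1, with changes from -0.51 (Psme1) to -0.30 (Psmb2). The median of the 44 was -0.18 against 0.04 over all genes. At an unadjusted p under 0.05, 17 were lower and 0 higher, against 15% and 17.1% of all genes. For 12 genes all Ctrl 5-FU libraries lay below all Ctrl libraries and for 0 above, with 15% and 17.9% of all genes. The count of 7 became 12 without Ctrl 5-FU replicate 1, 3 without Ctrl 5-FU replicate 3, 3 without Ctrl replicate 1, 13 without Ctrl replicate 2 and 3 without Ctrl replicate 3. Psmb4, Psmb10 and Psme1 were called in all 12 fits that left out a library. With equal summed RPKM 2 were called lower, Psmb10 and Psme1, and 83.3% of all called genes were higher, against 52.9% on the RPM scale.

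Among ABX 5-FU against ABX libraries 9 of 44 genes were lower and 0 higher, against 10.3% of all genes lower and 11.6% higher. They are Psma1, Psma3, Psma5, Psma7, Psmb2, Psmb10, Psme1, Psme3 and Psmg2, with changes from -0.57 (Psme3) to -0.28 (Psma7). The median of the 44 was -0.23 against 0.02 over all genes, and 24 were lower and 0 higher at an unadjusted p under 0.05, against 17% and 18.6% of all genes. Groups did not overlap for 31 genes in the lower and 1 in the higher direction, with 21.3% and 22.2% of all genes. The count of 9 became 5 without ABX 5-FU replicate 2, 5 without ABX 5-FU replicate 3, 13 without Ctrl 5-FU replicate 1 and 15 without Ctrl 5-FU replicate 3, which both enter through the shared spread, and 4 without ABX replicate 2. Psmb10, Psme1, Psme3 and Psmg2 were called in all 12 fits that left out a library. With equal summed RPKM 3 were lower (Psmb10, Psme3 and Psmg2) and 3 higher (Psmd4, Psmd8 and Psmd10), and 79.2% of all called genes were higher, against 53.0% on the RPM scale.

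A total of 37 genes lay below 0 in both comparisons, and 5 were called lower in both: Psma5, Psma7, Psmb2, Psmb10 and Psme1. Psme1 changed by -0.38 ± 0.088 (adjusted p = 0.0103) with antibiotics and -0.51 ± 0.088 (adjusted p = 0.00314) without. Psmb10 changed by -0.46 ± 0.090 (adjusted p = 0.00378) with and -0.41 ± 0.090 (adjusted p = 0.00982) without. Psme3 changed by -0.57 ± 0.085 (adjusted p = 0.000929) with antibiotics and was not called without them, at -0.22 ± 0.085 (adjusted p = 0.097). The difference between the changes of Psme3 was -0.35 ± 0.12 (adjusted p = 0.657), so a call in 1 of these comparisons does not show that the changes differ. The differences over the 44 genes ran from -0.35 in Psme3 to 0.34 in Psma8, and 0 genes were called, as were 0% of all 14317 genes (limma), with 0 of the 44 higher and 1 lower, Psme3, at an unadjusted p under 0.05, against 3.76% and 3.55% of all genes.

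**Figure D4:**
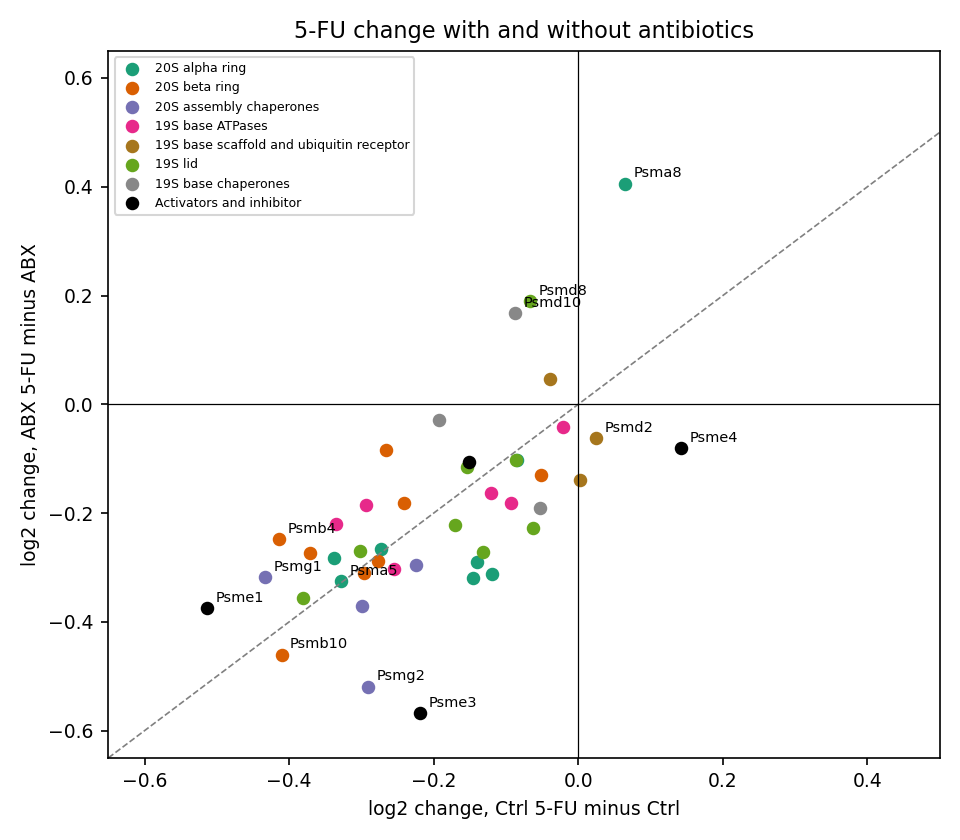
Log2 change of the 44 tested genes in ABX 5-FU against ABX (vertical) and in Ctrl 5-FU against Ctrl (horizontal), 1 point per gene coloured by role, with the line of equal change dashed. Most points, 37, lie below 0 on both axes; Psme3 and Psmg2 lie below the line and Psma8, Psmd8 and Psmd10 above 0 with antibiotics, and 0 of the differences passed the test.

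Antibiotics by themselves gave no called change in these genes. In ABX against Ctrl libraries 0 of 44 were called by limma, with 0.00698% of all genes called higher, 0.014% lower and 0.021% in either direction, and 3 were higher and 4 lower at an unadjusted p under 0.05, where 9.5% and 6.05% of all genes were. In ABX 5-FU against Ctrl 5-FU libraries 0 of 44 were called, with 0.0768% of all genes called higher, 0.0419% lower and 0.119% in either direction, and 1 was higher and 2 lower at an unadjusted p under 0.05, where 7.11% and 5.81% of all genes were. Libraries did not overlap for 5 genes higher and 4 lower in ABX against Ctrl, with 11.8% and 8.06% of all genes (19.9% in either direction), and for 3 higher and 4 lower in ABX 5-FU against Ctrl 5-FU, with 10.9% and 8.27% (19.2% in either direction). These 2 comparisons share no library. Psmc6 and Psma4 lay higher, and Psmd11 and Psmf1 lower, without overlap in both; they were picked out after their values were seen. Psmd11, a lid subunit, had 57.7, 55.1 and 51.7 RPM in ABX 5-FU, 72.2, 74.8 and 67.3 RPM in Ctrl 5-FU, 59.7, 64.6 and 54.4 RPM in ABX and 90.4, 73.7 and 75.3 RPM in Ctrl libraries. The antibiotic libraries of Psmd11 lay below the others in each setting, with changes of -0.38 ± 0.10 (adjusted p = 0.156) after 5-FU and -0.41 ± 0.10 (adjusted p = 0.16) without it. For Psmc6 they were 0.25 ± 0.084 (adjusted p = 0.228) after 5-FU and 0.27 ± 0.084 (adjusted p = 0.205) without it.

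Single libraries moved many of the genes together. Ctrl 5-FU replicate 1 was the highest library of its group in 31 of the 44 genes and replicate 3 the lowest in 39. Among Ctrl libraries replicate 1 was highest in 33 and replicate 2 lowest in 35. In ABX 5-FU replicate 1 was highest in 32 and replicate 2 lowest in 30, and in ABX replicate 2 was highest in 29 and replicate 1 lowest in 23. The same counts were not taken over all genes, so this is not shown to be particular to the proteasome genes. Summed over all 45 genes, the level was 5397, 4921 and 5091 RPM in ABX 5-FU, 5626, 5278 and 4763 RPM in Ctrl 5-FU, 5838, 6209.6 and 5913 RPM in ABX, and 6379, 5559 and 5997 RPM in Ctrl libraries. The ABX 5-FU sums lay below the ABX sums, while Ctrl 5-FU replicate 1 lay above Ctrl replicate 2.

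The proportion of core to cap does not depend on how libraries are scaled. The 20S rings over the 19S ATPases, scaffolds, receptor and lid gave 1.009, 0.9997 and 1.054 in ABX 5-FU, 0.959, 1.060 and 0.986 in Ctrl 5-FU, 1.048, 1.135 and 1.137 in ABX, and 1.064, 1.110 and 1.096 in Ctrl libraries. The ratio was lower after 5-FU without overlap for Ctrl 5-FU against Ctrl, where the nearest libraries differ in the third decimal, and with overlap for ABX 5-FU against ABX. Psmb10 over Psmb7, the immune over the constitutive trypsin-like subunit, whose gene overlaps Nek6, gave 1.22, 1.45 and 1.37 in ABX 5-FU, 1.62, 1.80 and 1.49 in Ctrl 5-FU, 1.78, 1.65 and 1.83 in ABX, and 1.68, 1.87 and 1.87 in Ctrl libraries. The 3 ABX 5-FU libraries were the lowest of the 12. Since RPM is not divided by transcript length, these ratios compare libraries and do not give the proportion of transcripts. They are given as a description, without a test.

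**Figure D5:**
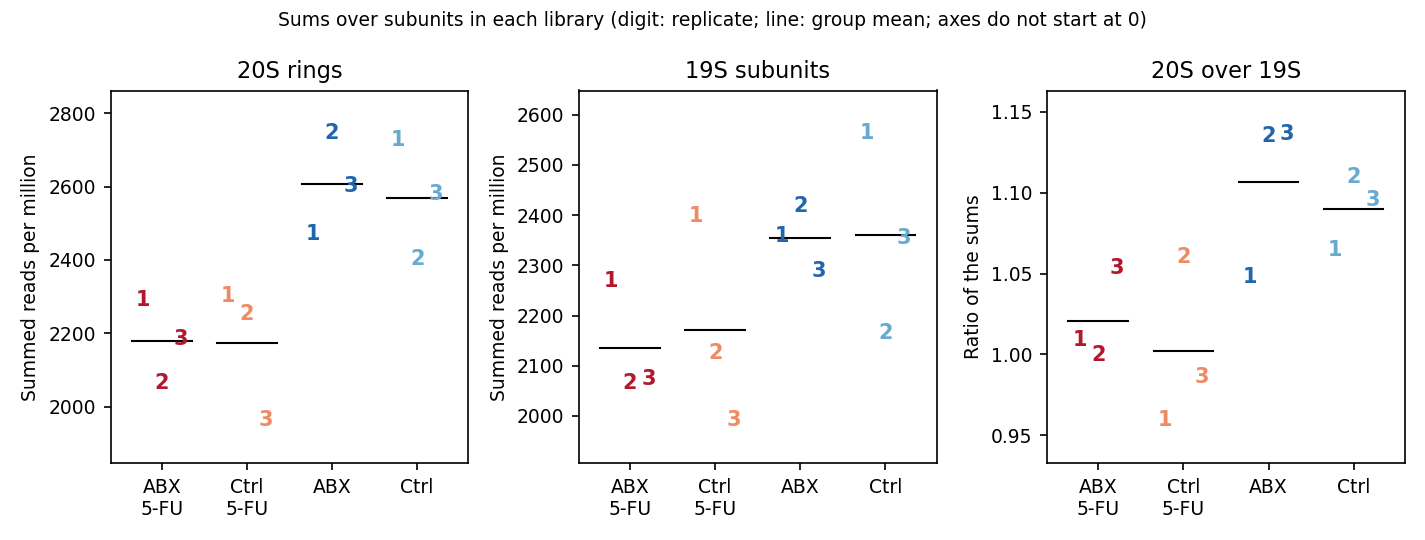
Summed RPM of the 20S rings (left) and the 19S subunits (middle), and their ratio (right), per library, with the digit giving the replicate and the line the group mean; the axes do not start at 0. The 20S sums of both 5-FU groups (1963 to 2300 RPM) lie below those without 5-FU (2402 to 2744 RPM), whereas the 19S sums overlap (1992 to 2398 against 2164 to 2563 RPM).

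Reads of some of these genes may be split with near-identical copies. A total of 11 genes have a match at 95% identity or more over at least 300 bases in another gene, 18 matches in all, of which 14 had a value above 0. The rest are not in the deposited table under their names: Gm6474 (Psma2), AC114990.1 (Psmb3), Gm3375 (Psmb5) and AC110212.1 (Psmc1). Whether those share reads with their genes cannot be seen. Those of Psmd13 (Sirt3) and Psmd1 (Gm21972) are genes that overlap them on the genome and not separate copies. Gm13835, a processed pseudogene on chr6:31141979-31142663 that is identical to Psma3 over 685 bases, averaged 165.7 RPM, against 60.8 RPM for Psma3. The copies of Psma3 held 73.3% of the joint level, those of Psma5 (Gm8394 and Gm12989) 51.2% and that of Psmd11 (Gm14048) 28%, counting pseudogenes only. The transcript A730017L22Rik, within whose span Gm14048 lies and which matches Psmd11 over 1503 bases, averaged 17.8 RPM and was not added. The levels of Psma3, Psma5 and Psmd11 are therefore uncertain. Some copies were lower after 5-FU too: the averaged 5-FU change was -0.21 ± 0.057 for Gm13835 (adjusted p = 0.0126), -0.29 ± 0.074 for Gm8394 (adjusted p = 0.00894) and -0.26 ± 0.075 for Gm12989 (adjusted p = 0.0166). With the pseudogenes' reads added, the same genes were called, 7 without antibiotics, 9 with them and 22 averaged.

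Other genes overlap 4 of these genes at 5% or more of their level, and a strand setting is not given in the sources used here, so the overlapped values are uncertain. Psmd13 shares bases with Sirt3 (142 RPM) and with the pseudogene Gm15542 (85.1 RPM), against 99.9 RPM of its own. Psmb7 lies over Nek6 (47.2 RPM against 67.6 RPM), Psmc3 over Slc39a13 (27.5 against 144 RPM), and Psma3 over the antisense gene 3110056K07Rik (9.24 against 60.8 RPM).

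The subunits left out by the rule moved in the same direction. Psme2, the partner of Psme1 in PA28, had 38.5, 35.9 and 32.4 RPM in ABX 5-FU, 37.6, 35.96 and 34.5 RPM in Ctrl 5-FU, 48.5, 56.8 and 53.8 RPM in ABX and 55.5, 52.05 and 56.3 RPM in Ctrl libraries. Its libraries with 5-FU lay below all those without, at -0.58 ± 0.069 (adjusted p = 8.54e-05). Psmb8 changed by -0.43 ± 0.057 (adjusted p = 0.000153) and Psmb9 by -0.39 ± 0.078 (adjusted p = 0.0026).

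Of 35 other genes of the pathway, 34 were in the table and tested, and averaged over antibiotic state 9 were lower and 4 higher after 5-FU, with a median of -0.03 against 0.03 over all genes, of which 16.9% were lower and 18.7% higher. Ctrl 5-FU against Ctrl gave 1 lower and 2 higher, against 7.97% and 8.94% of all genes, and ABX 5-FU against ABX gave 7 lower and 1 higher, against 10.3% and 11.6%. All 4 higher genes came from the 8 of the transcription factor list, which had 0 lower in the averaged comparison. That list had 2 higher and 0 lower in Ctrl 5-FU against Ctrl, and 1 higher and 1 lower in ABX 5-FU against ABX. Nfe2l2, the factor of the antioxidant response, had 139, 152 and 148 RPM in ABX 5-FU, 133, 129 and 137 RPM in Ctrl 5-FU, 97.1, 85.4 and 106 RPM in ABX and 90.9, 107 and 100.6 RPM in Ctrl libraries. Its libraries with 5-FU lay above all those without, at 0.51 ± 0.065 (adjusted p = 0.000117). Its partner Mafk changed by 0.40, the protease Ddi2, which activates NFE2L1, by 0.41, and the glycanase Ngly1, which deglycosylates it, by 0.28. Nfe2l1 itself had 143, 146 and 143 RPM in ABX 5-FU, 181, 148 and 152 RPM in Ctrl 5-FU, 141, 104 and 144 RPM in ABX and 132, 144 and 132 RPM in Ctrl libraries, with overlap between the groups, and its change of 0.20 ± 0.084 (adjusted p = 0.0838) was not called.

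Averaged over antibiotic state, 4 of 12 partners of the particle were lower and 0 higher, against 16.9% and 18.7% of all genes. Pomp, the maturation factor that completes the core, had 109, 93.6 and 96.4 RPM in ABX 5-FU, 95.1, 96.9 and 82.4 RPM in Ctrl 5-FU, 111, 124 and 130.1 RPM in ABX and 122, 120.02 and 133 RPM in Ctrl libraries. All 6 libraries with 5-FU lay below the 6 without, and the change was -0.37 ± 0.067 (adjusted p = 0.00139). Txnl1, a thioredoxin-like protein bound to the cap, changed by -0.39 ± 0.075 (adjusted p = 0.00204), and the ubiquitin receptor Adrm1, at -0.07 ± 0.084 (adjusted p = 0.522) was not called and lay above 0 with equal summed RPKM. In the same comparison, with the same shares of all genes, 2 of 8 shuttle and segregase genes were lower and 0 higher. Of the ubiquitin genes and first enzymes 3 of 6 were lower and 0 higher. Rps27a (-0.37), which encodes ubiquitin fused to a ribosomal protein, was among them, while the polyubiquitin gene Ubb, at -0.05 ± 0.054 (adjusted p = 0.467), was not called and lay above 0 with equal summed RPKM. In ABX 5-FU against Ctrl 5-FU, in ABX against Ctrl and in the difference of the 5-FU changes 0 of the 34 were called by limma. At an unadjusted p under 0.05, 10 were higher and 2 lower in ABX against Ctrl, against 9.5% and 6.05% of all genes, and the median was 0.16 against 0.03 over all genes. In ABX 5-FU against Ctrl 5-FU 1 was higher and 3 lower at that level, against 7.11% and 5.81% of all genes. In the difference 1 was higher and 0 lower, against 3.76% and 3.55%.

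Lists of proliferation genes and of cell type markers are set beside the proteasome genes, in the averaged comparison in which 16.9% of all genes were lower and 18.7% higher. Of 14 proliferation genes 13 were lower and 0 higher, with a summed level of 1641 to 1827 RPM in ABX 5-FU, 1508 to 2286 RPM in Ctrl 5-FU, 3166 to 3977 RPM in ABX and 2682 to 3750 RPM in Ctrl libraries. The megakaryocyte and platelet list had 3 of 6 higher, with sums of 758 to 812 RPM in ABX 5-FU, 869 to 1362 RPM in Ctrl 5-FU, 259 to 286 RPM in ABX and 322 to 385 RPM in Ctrl libraries. The neutrophil and monocyte list had 3 of 9 tested higher, with sums of 24.5 to 80.7 RPM in ABX 5-FU, 68.2 to 727 RPM in Ctrl 5-FU, 22.1 to 55.1 RPM in ABX and 25.7 to 54.9 RPM in Ctrl libraries. The erythroid list had 3 of 8 higher, with sums of 264 to 652 RPM in ABX 5-FU, 220.2 to 325 RPM in Ctrl 5-FU, 65.3 to 91.5 RPM in ABX and 48.6 to 368 RPM in Ctrl libraries. The stroma and endothelium list had 2 of 5 tested higher, with sums of 131 to 665 RPM in ABX 5-FU, 142 to 592 RPM in Ctrl 5-FU, 57.1 to 79.3 RPM in ABX and 72.6 to 145 RPM in Ctrl libraries. The macrophage list had 1 of 5 higher, with 83.7 to 133 RPM in ABX 5-FU, 52.2 to 87.8 RPM in Ctrl 5-FU, 40.1 to 143 RPM in ABX and 32.9 to 82.6 RPM in Ctrl libraries. The lymphoid list had 1 of 2 tested higher, with 91.1 to 105 RPM in ABX 5-FU, 88.2 to 118 RPM in Ctrl 5-FU, 35.01 to 40.6 RPM in ABX and 41.7 to 53.03 RPM in Ctrl libraries, and of its 7 genes Cd3e and Cd3g were at 0 in every library. Of the 9 HSC markers 6 were higher and 1 lower. The part of these in the change of the proteasome genes was not tested.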

How the data were processed

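The deposited table holds RPKM values made by the authors for 46986 features in 12 libraries, with 0.0001 in place of 0. STAR 2.5.3a, Partek and mm10 were used per the submitters' processing notes, which give no roles. How reads were counted, on which strand and against which annotation was not given in the sources used here. RPKM was multiplied by genomic span in kilobases (deposited stop minus start) to give RPM. The test had been planned on log2(RPKM + 1); because the values turned out to be divided by genomic span, log2(RPM + 1) was used, a change made after levels were seen and before any test. The other settings tried were applied on that scale, and the deposited scale was added as an alternative after seeing the data, as was adding reads of pseudogene copies.

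With R 4.3.3 and limma 3.58.1, the 14317 genes with at least 1 RPM in at least 3 libraries were fitted in 1 model of 4 group means over 12 libraries (8 residual and 4.19 prior degrees of freedom, intensity trend). Tests were two-sided, adjusted by Benjamini-Hochberg within each comparison and called at 0.05. The fit was tested on simulated data: of 14317 genes simulated for Ctrl 5-FU against Ctrl, 200 were changed by 1 on the log2 scale, of which 183 were called, with 11 calls among the rest. That change is larger than any called in the proteasome genes, the changed genes were taken from higher levels, and the simulated noise was independent between genes. The simulation therefore checks that the code runs properly and does not show recovery or false calls for changes of the size reported here. Changes are log2 differences ± SE on the log2(RPM + 1) scale, which understates low genes. Total counts are not stated. Low values of single-exon genes gave estimated depths, but just 62.8% to 69.7% of them per library were whole multiples within 2%; reads were not recovered and a count model was not used. Transcript lengths and copies came from GENCODE M21 (BLAST+ 2.17.0), which may differ from the authors' release and matched the coordinates of 33 of the 45 genes.

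The genes, lists and rules were chosen with earlier results of these data known. Named genes are the 12 with the smallest adjusted p plus Psmc3, so that each role with a call has one, the highest and lowest RPKM of each role, the catalytic subunits and activators, and genes not tested. Of the other pathway genes they are Nfe2l1, Pomp, Adrm1, Ubb and up to 4 called ones per comparison; a few genes the rule also names are not reported here. Sem1, Ufd1 and Ecpas are listed as Shfm1, Ufd1l and AI314180. Paaf1 was not analysed here.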

Additional observations from a re-analysis of the deposited data

How the results depend on the processing

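Each count of called proteasome genes was recomputed under every other setting, 1 at a time. The count of genes called lower in Ctrl 5-FU against Ctrl, 7, was 2 with libraries set to equal summed RPKM, 12 with median-ratio scaling and 2 with only the groups compared in the fit, and it ran from 3 to 13 when single libraries were left out. The count in ABX 5-FU against ABX, 9, was 3 with equal summed RPKM, with 3 called higher, and 15 with only the groups compared, and ran from 4 to 15 without single libraries. The averaged count, 22, was 7 with equal summed RPKM, with 4 called higher, and 26 with median-ratio scaling, with 0 called higher. It ran from 17 to 26 without single libraries. The cause of these shifts was not tested. Psme1 was called lower in Ctrl 5-FU against Ctrl under all 20 settings, Psmb10, Psme3 and Psmg2 in ABX 5-FU against ABX under all 20, and 7 genes averaged under all 19. On the log2(RPKM + 1) scale, added after seeing the data, 23 were lower averaged, 22 of them shared with the RPM scale.

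Among changes of single genes, 1071 values kept direction and call, 48 lost the call, 42 gained it and 13 changed direction. With equal summed RPKM the change of Ubb was 0.10 without antibiotics, 0.14 with them and 0.12 averaged, that of Adrm1 averaged 0.10, that of Psme4 with antibiotics 0.086, and that of Psmb7 0.088 with antibiotics and 0.00083 averaged. Leaving out single libraries moved Adrm1 without antibiotics between -0.058 and 0.10, Psme4 between -0.31 and 0.053 with antibiotics and between -0.086 and 0.098 averaged, and Ubb with antibiotics between -0.085 and 0.00051.

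No paired analysis was possible because the labels carry no replicate numbers, other than by the i7 index, each of which 1 ABX and 1 Ctrl library of the same 5-FU state share. With the index as a block 0 proteasome genes were called for antibiotics without 5-FU, for antibiotics after 5-FU or for the difference of the 5-FU changes, while 37, 27 and 0 of all genes were; the 5-FU comparisons cannot be fitted with it. Psmb11, at 0 in 11 libraries, could not be tested, and copies limit the genes whose reads they may share.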
